A study of Mus musculus with 2 samples.

Results

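Collagen genes were described across the cell types of noise-exposed mouse cochleae by single-cell RNA sequencing. They were taken as the genes whose symbol is Col, a number, the letter a and a number, which gave 44 of the 32285 genes counted. The samples were 2 libraries made with the 10x Genomics 3′ chemistry from sensory epithelium dissected from C57BL/6J cochleae at 4 to 6 weeks of age and dissociated with trypsin. The 5 ears pooled for Drug-NIHL had received a drug (90 mg/ml) ahead of noise exposure. The other ear of each mouse was left untreated, and these 5 ears made up the NIHL pool. The series title names the drug as VPA, and the route was not given in the sources used here. Both groups were exposed to octave-band noise of 8 to 16 kHz at 105 dB for 2 hours and dissected 2 days later, so neither is an unexposed ear. With 1 library per group no difference has a replicate check, no test was possible, and every interval below covers counting error only. Differences between the 2 pools and differences caused by the drug cannot be told apart.

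Collagens are secreted or membrane-bound proteins whose chains wind into a triple helix. Fibril-forming types (I, II, III, V, XI, XXIV and XXVII) build the fibres of bone, cartilage and loose connective tissue. Type IV builds the sheet of every basement membrane, type VI forms beaded filaments, and types IX, XII, XIV, XVI, XIX, XX and XXII sit on fibrils. In the cochlea, types II, IX and XI are known constituents of the tectorial membrane and of the spiral ligament and limbus, and type IV lines capillaries, nerve fibres and epithelia. Mutations of human type II, IV, IX and XI chains are known causes of hearing loss.

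The Drug-NIHL library held 39939170 unique molecules (UMIs) in 21773 barcodes, and the NIHL library held 38380393 UMIs in 18545 barcodes. After filtering, 17536 Drug-NIHL cells and 16618 NIHL cells were kept, with a median of 1128.5 and 1128 UMIs per cell. The doublet caller removed 12.9% of Drug-NIHL cells and 4.62% of NIHL cells, and 111 barcode sequences occurred in both libraries. Cells were clustered together without the collagen genes, and 33 of 39 clusters were named from marker genes that are not collagens. This gave 24 classes, written below as "-like", of which 21 held at least 100 cells in each library. Levels are given as CPM: the UMIs of a gene, summed over all cells of a class in 1 library, scaled to a common total of UMIs. UMIs counted at the 3′ end do not scale with transcript length, but capture can still differ between genes. A collagen was said to mark a class where its level was at least 3 times that in all other cells and its sum at least 20 UMIs, in each library separately.

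Of the 44 collagens, 37 reached 20 UMIs in some class in both libraries, and 34 marked at least 1 class. Of these, 16 marked 1 class and 18 marked more, which made 57 marked pairs of collagen and class out of 183 with enough UMIs. All 11 fibril-forming genes and all 6 type IV genes marked a class, against 7 of 9 genes of the fibril-associated group, 3 of 6 of the beaded-filament group, 3 of 4 of the transmembrane group, 2 of 3 short-chain genes and 1 of 2 multiplexins. The class with the highest level was the same in both libraries for 25 of the 37. Collagen UMIs made up 1.56% of all UMIs of osteoblast-like cells in Drug-NIHL and 1.34% in NIHL, the highest share of any class. Next came pericyte-like cells with 0.254% and 0.228%, arachnoid-like cells with 0.244% and 0.226% and satellite glia-like cells with 0.206% and 0.228%. Smooth muscle-like cells, with 0.238% in Drug-NIHL and 0.157% in NIHL, stood above satellite glia-like cells in Drug-NIHL only. The order of these classes was not the same in both libraries, and monocyte-like cells were lowest with 0.00958% and 0.0183%. The other 11 classes, among them blood, marginal and oligodendrocyte-like cells, held 16 pairs of collagen and class with enough UMIs, and none of them was marked, against 9.82% of gene and class pairs over all genes.

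**Figure D1:**
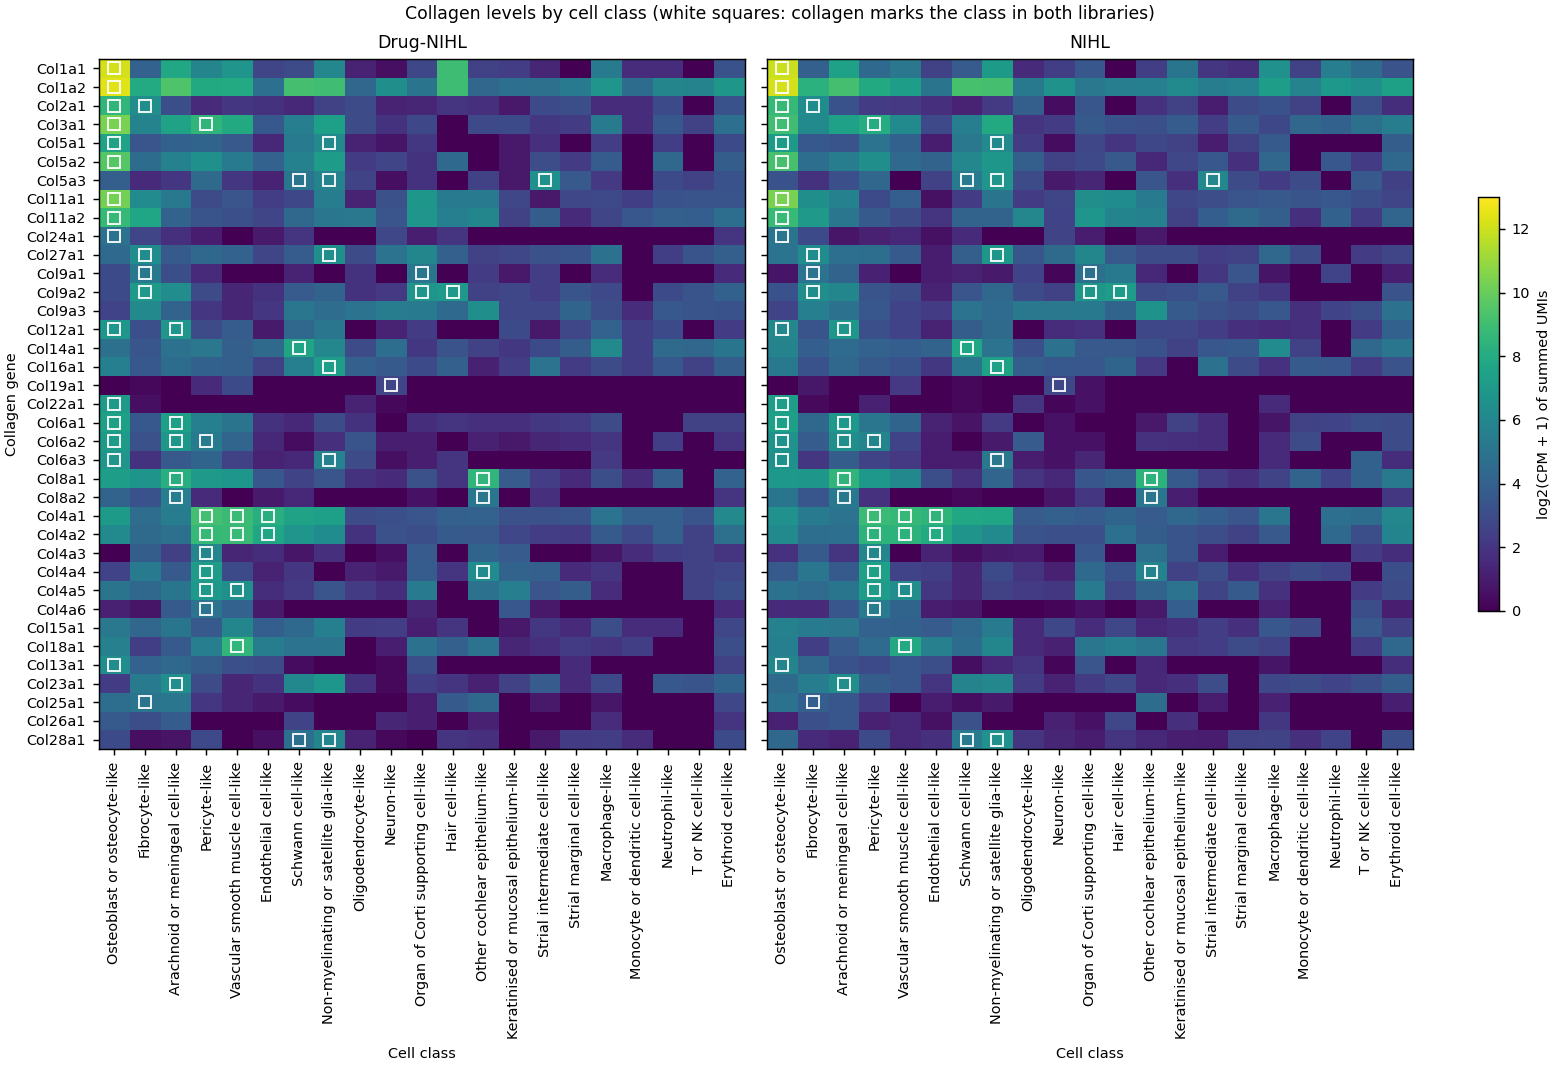
Heat maps of 37 collagens (rows) in the 21 compared cell classes (columns), with Drug-NIHL on the left and NIHL on the right; the colour is log2 of CPM plus 1 from 1 library per group, and white squares show marked pairs. The osteoblast-like column carries 15 squares, and the type IV rows have theirs in the vessel columns, apart from Col4a4, which also has one in the other cochlear epithelium-like column.

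Osteoblast-like cells were marked by the most collagens, 15 of the 23 with enough UMIs there, against 5.95% of all genes. The class held 291 Drug-NIHL cells and 538 NIHL cells and was led by Bglap, Bglap2 and Ibsp, which encode bone matrix proteins. Col1a1 and Col1a2 encode the chains of type I collagen, the main protein of bone. Col1a1 (chr11:94936224-94953042, plus strand, GRCm38) stood at 4632 CPM in Drug-NIHL (interval 4481 to 4786) and 3935 CPM in NIHL (3835 to 4036), which was 158 and 154 times its level in the other cells. Col1a2 (chr6:4504814-4541544, plus strand) stood at 5211 CPM in Drug-NIHL and 4654 CPM in NIHL, but only 23.3 and 18.4 times the other cells. Of all Col1a1 UMIs in named classes, 80.5% in Drug-NIHL and 88.2% in NIHL lay in this class, against 41.9% and 49.3% of the Col1a2 UMIs.

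The remaining bone-marking genes included minor fibril chains and collagens of fibril surfaces. Col11a1, a chain that starts cartilage and bone fibrils, reached 1260 CPM in Drug-NIHL and 1339 CPM in NIHL, and its partner Col11a2 reached 417 and 434 CPM. Col5a2, which sets fibril width together with type I, reached 748 CPM in Drug-NIHL and 593 CPM in NIHL. Col2a1, the main cartilage collagen, stood at 373 CPM in Drug-NIHL and 415 CPM in NIHL. Col22a1, a collagen known from tissue junctions, was the most restricted of the marked collagens by fold: it stood at 135 CPM in Drug-NIHL and 158 CPM in NIHL, 1008 and 424 times the other cells. The class held 104 of the 108 Col22a1 UMIs of the Drug-NIHL library and 238 of the 250 of the NIHL library. Col3a1, Col5a1, Col6a1, Col6a2, Col6a3, Col12a1, Col13a1 and Col24a1 completed the set, at 28.5 to 1348 CPM in Drug-NIHL and 31.1 to 513 CPM in NIHL.

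At a finer clustering resolution of 2 the osteoblast-like class came apart into 2 parts with different collagens. It was chosen for description after its values were seen. One part, 152 Drug-NIHL cells and 267 NIHL cells, was led by Bglap, Ifitm5 and Ibsp and kept the osteoblast name. The other, 136 and 267 cells, was led by Mmp3, Ccn5, Dpt, Sfrp2 and Pi16 and took the name connective tissue fibroblast-like. Col22a1 stood at 308 CPM in Drug-NIHL and 271 CPM in NIHL in the bone part, and had 0 UMIs in the fibroblast part of either library, which allows up to 6.97 and 4.77 CPM. Col2a1 had 287 UMIs in Drug-NIHL and 623 in NIHL in the bone part, against 1 and 3 in the fibroblast part, and Col11a2 had 321 and 653 against 0 and 2. Col11a1 (2623 and 2262 CPM against 207 and 62.0 CPM), Col24a1, Col13a1 and Col25a1 were likewise higher in the bone part.

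Type I and type V chains were present in both parts. Col1a1 stood at 7651 CPM in Drug-NIHL and 5902 CPM in NIHL in the bone part, against 2315 and 1221 CPM in the fibroblast part. Col3a1, the type III chain of soft connective tissue, had the opposite order, with 139 CPM in Drug-NIHL and 54.8 CPM in NIHL in the bone part and 2310 and 1153 CPM in the fibroblast part. The type VI chains followed Col3a1: Col6a1 stood at 56.3 and 51.3 CPM in the bone part and at 260 and 308 CPM in the fibroblast part, and Col6a3 at 11.9 and 27.4 CPM against 188 and 183 CPM. Col8a1, Col14a1 and Col18a1 were also higher in the fibroblast part. The 15 marks of the undivided class thus joined collagens that were higher in the bone part with collagens that were higher in the fibroblast part.

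**Figure D2:**
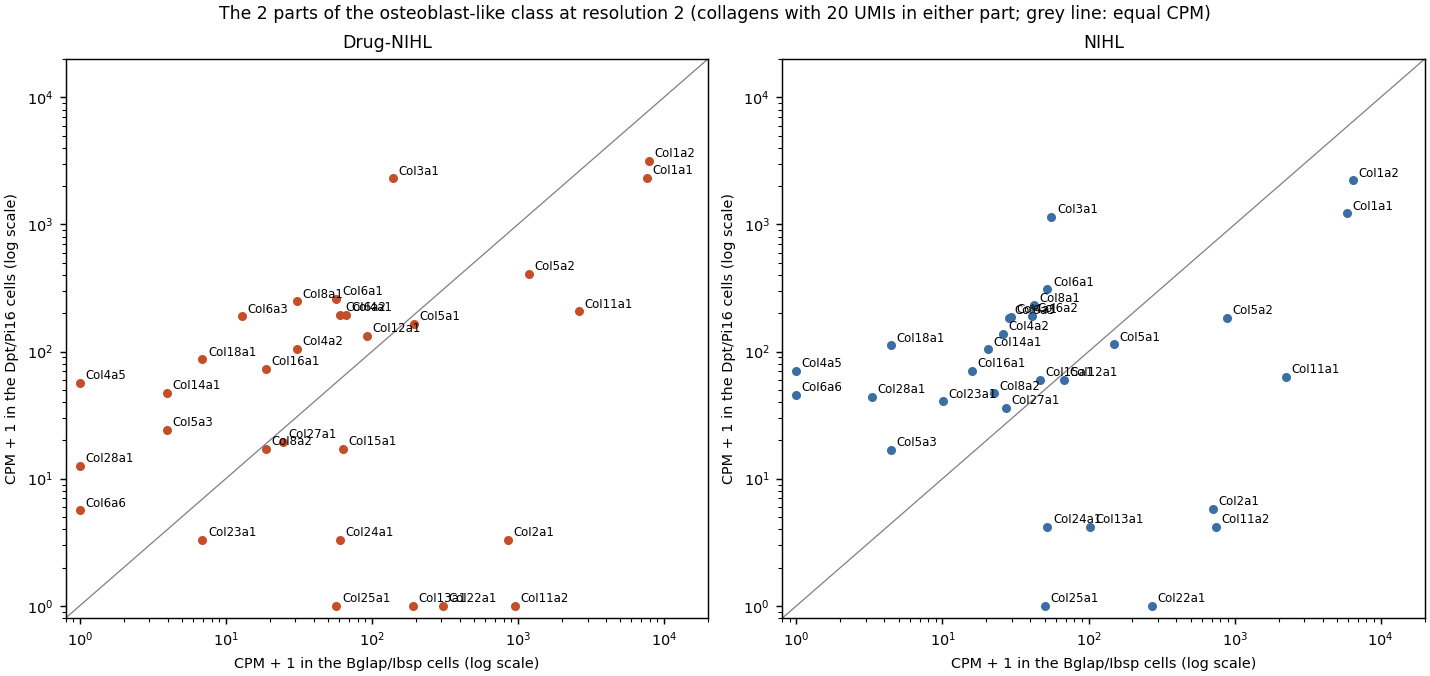
CPM plus 1 of 30 collagens in the bone part (x axis, log scale) against the fibroblast part (y axis, log scale) of the osteoblast-like class at resolution 2, with Drug-NIHL on the left and NIHL on the right; each point is 1 gene in 1 library, and the grey line marks equal levels. Col22a1, Col2a1 and Col11a2 lie at the lower right, and Col3a1 and the type VI chains lie above the line.

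Fibrocyte-like cells, the connective tissue cells of the spiral ligament and limbus named here from Coch, Otos, Slc4a11 and related genes, were marked by 5 of 30 collagens, against 2.81% of all genes. They were Col2a1, Col9a1, Col9a2, Col25a1 and Col27a1. Col9a2, a chain of type IX that decorates type II fibrils, stood at 132 CPM in Drug-NIHL and 84.1 CPM in NIHL. Col2a1 stood at 85.1 CPM in Drug-NIHL and 79.0 CPM in NIHL, and Col27a1, a fibril-forming chain of cartilage, at 79.4 and 80.0 CPM. Col9a1 and Col25a1, a transmembrane collagen, were lower, with 37.6 and 31.0 CPM in Drug-NIHL and 29.9 and 13.7 CPM in NIHL. Col1a2 had the highest sum in the class, 248 CPM in Drug-NIHL and 311 CPM in NIHL, without marking it.

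The class was made of 4 clusters that differed in their collagens. Cluster 4, led by Fst, Inmt, Dpep1, Cemip and Coch, was marked by 7 collagens against 3.5% of all genes. Col2a1 stood there at 230 CPM in Drug-NIHL and 149 CPM in NIHL, Col8a1 at 248 and 205 CPM, and Col4a4 at 74.5 and 65.2 CPM. Col4a3, Col9a1, Col9a2 and Col15a1 were its other marks, so the cluster carried the chains of cartilage-type fibrils together with those of the type IV alpha3 and alpha4 network. Cluster 9, led by Emilin2, Notum, Epha3 and Otor, was marked by Col13a1, Col23a1, Col25a1 and Col27a1, against 4.86% of all genes. Of these, Col13a1, Col23a1 and Col25a1 encode transmembrane collagens, and Col23a1 stood at 108 CPM in Drug-NIHL and 88.5 CPM in NIHL.

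Cluster 12, led by Slc4a11 and Otos, was marked by Col9a1, Col9a2 and Col11a2, against 4.38% of all genes. Col9a2 reached 221 CPM in Drug-NIHL and 301 CPM in NIHL, and Col11a2 (chr17:34039437-34066685, plus strand) reached 351 and 272 CPM. Cluster 21, led by Fxyd2, Kcnk2 and Pkp1 with Gjb2 among its leading genes, was marked by Col11a2 alone, at 253 CPM in Drug-NIHL and 211 CPM in NIHL, against 3.36% of all genes. Outside cluster 4, Col2a1 stood between 26.3 and 39.1 CPM in Drug-NIHL and between 25.8 and 40.1 CPM in NIHL. Col1a2 ranged from 70.1 CPM in cluster 12 to 555 CPM in cluster 4 of Drug-NIHL and from 161 CPM in cluster 21 to 489 CPM in cluster 4 of NIHL.

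**Figure D3:**
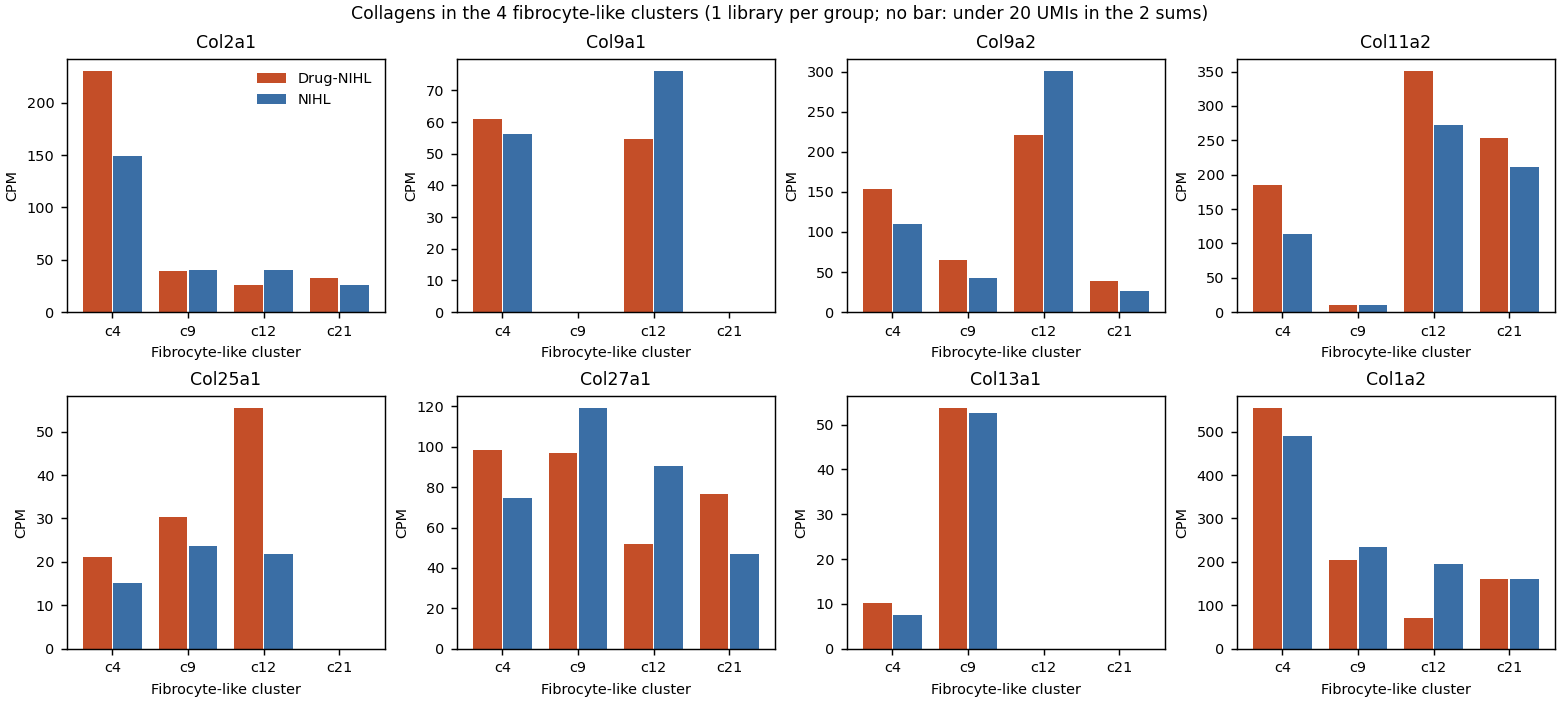
CPM of 8 collagens in the 4 fibrocyte-like clusters (x axis), with Drug-NIHL and NIHL bars side by side; 1 library per group, and a missing bar means under 20 UMIs in the 2 sums. Col2a1 peaks in cluster 4 at 230 and 149 CPM, Col13a1 in cluster 9 at 53.8 and 52.5 CPM, and Col11a2 in cluster 12 at 351 and 272 CPM.

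Arachnoid-like cells, named from Slc6a13, Slc22a6 and Slc47a1, were marked by 6 of 20 collagens, against 3.99% of all genes. Col8a1, a short chain of hexagonal networks such as the corneal Descemet's membrane, stood at 281 CPM in Drug-NIHL and 361 CPM in NIHL, with Col8a2 at 46.9 and 36.6 CPM. The type VI chains Col6a1 (164 and 119 CPM) and Col6a2 (117 and 89.2 CPM), the fibril-associated Col12a1 (109 and 116 CPM) and the transmembrane Col23a1 (83.0 and 85.6 CPM) were the other marks. All 6 marked the cluster led by Slc47a1, Penk and Prg4, where Col8a1 reached 544 CPM in Drug-NIHL and 639 CPM in NIHL and Col6a1 reached 249 and 181 CPM. The other arachnoid-like cluster, led by Slc6a13 and Slc22a2, was marked by Col9a2 (157 and 112 CPM) and Col15a1 (63.0 and 73.9 CPM) instead.

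Type IV collagen marked the vessel classes. Its 6 genes lie in 3 head-to-head pairs in the mouse genome, and the starts given by GENCODE M21 on GRCm38 are 21 bases apart for Col4a1 (chr8:11198423-11312826, minus strand) and Col4a2 (chr8:11312805-11449287, plus strand). They are 72 bases apart for Col4a3 (chr1:82586921-82722059, plus strand) and Col4a4 (chr1:82448423-82586849, minus strand) and 1309 bases apart for Col4a5 (chrX:141475385-141689234, plus strand) and Col4a6 (chrX:141165403-141474076, minus strand). The promoter windows of RefSeq (GRCm38.p6, 250 bases before the start to 50 after it) are shown because the members of each pair start next to each other and their levels are set side by side here. Capitals mark the CCAAT box (CCAAT), the GC box (GGGCGG) and the TATA box (TATAAA) on either strand, so that ATTGG and CCGCCC are the first 2 read from the opposite strand.
Col4a1 (chr8:11312777-11313076, minus strand): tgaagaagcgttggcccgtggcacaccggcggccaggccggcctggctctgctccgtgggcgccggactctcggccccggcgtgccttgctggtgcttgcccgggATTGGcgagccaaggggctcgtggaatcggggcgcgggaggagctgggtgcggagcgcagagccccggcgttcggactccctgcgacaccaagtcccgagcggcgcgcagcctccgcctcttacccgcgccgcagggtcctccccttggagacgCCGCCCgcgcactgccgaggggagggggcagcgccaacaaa
Col4a2 (chr8:11312555-11312854, plus strand): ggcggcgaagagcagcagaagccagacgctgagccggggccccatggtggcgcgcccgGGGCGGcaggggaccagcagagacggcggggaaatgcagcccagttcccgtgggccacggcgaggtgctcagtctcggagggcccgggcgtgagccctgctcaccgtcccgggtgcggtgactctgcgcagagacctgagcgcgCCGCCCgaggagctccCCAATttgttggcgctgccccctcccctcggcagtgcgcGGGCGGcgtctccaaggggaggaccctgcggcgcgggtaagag
Col4a4 (chr1:82586800-82587099, minus strand): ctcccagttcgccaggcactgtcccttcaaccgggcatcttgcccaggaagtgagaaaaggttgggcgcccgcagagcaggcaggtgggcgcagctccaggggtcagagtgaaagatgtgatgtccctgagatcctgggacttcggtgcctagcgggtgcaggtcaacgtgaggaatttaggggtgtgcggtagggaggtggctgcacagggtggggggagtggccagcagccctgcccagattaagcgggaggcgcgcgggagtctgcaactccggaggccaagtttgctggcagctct
Col4a5 (chrX:141475169-141475468, plus strand): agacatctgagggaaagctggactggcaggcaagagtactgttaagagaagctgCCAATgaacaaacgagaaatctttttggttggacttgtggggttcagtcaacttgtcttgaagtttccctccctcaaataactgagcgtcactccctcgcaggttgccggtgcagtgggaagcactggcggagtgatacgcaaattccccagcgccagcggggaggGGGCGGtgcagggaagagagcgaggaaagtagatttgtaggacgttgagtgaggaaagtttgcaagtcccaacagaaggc
Col4a6 (chrX:141474027-141474326, minus strand): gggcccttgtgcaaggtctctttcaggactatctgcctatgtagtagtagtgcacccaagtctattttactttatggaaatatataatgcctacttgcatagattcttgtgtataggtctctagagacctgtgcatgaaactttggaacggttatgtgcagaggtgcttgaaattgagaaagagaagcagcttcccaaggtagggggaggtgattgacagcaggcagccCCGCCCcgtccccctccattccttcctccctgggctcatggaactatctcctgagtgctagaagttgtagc
The windows of Col4a1 and Col4a2 share 78 bases, chr8:11312777-11312854, read in opposite directions. Over the 32544 mouse windows of this length, 37.4% held a CCAAT box, 35.9% a GC box and 13.6% a TATA box. Over the 38 collagen windows, which covered 35 of the 44 genes, the shares were 34.2%, 60.5% and 13.2%. The Col4a4 window held none of the 3 motifs.

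Pericyte-like cells, the contractile cells wrapped around capillaries, were marked by 8 of 12 collagens, against 7.1% of all genes, and all 6 type IV genes were among them. Col4a1 stood at 548 CPM in Drug-NIHL (interval 502 to 597) and 465 CPM in NIHL (417 to 516), and Col4a2 at 413 and 338 CPM. Col4a4 stood at 146 CPM in Drug-NIHL and 170 CPM in NIHL, 11.5 and 15.4 times the other cells, and Col4a3 at 58.7 and 61.9 CPM. Col4a5 stood at 122 CPM in Drug-NIHL and 143 CPM in NIHL, and Col4a6 at 29.9 and 39.5 CPM. Each of the 6 genes had its highest level here in both libraries, except that Col4a2 was highest in smooth muscle-like cells of Drug-NIHL. Col3a1 (358 and 263 CPM) and Col6a2 (40.2 and 56.6 CPM) were the marks of pericyte-like cells outside type IV.

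Vascular smooth muscle-like cells were marked by 4 of 8 collagens, against 10.0% of all genes. Col4a1 stood at 472 CPM in Drug-NIHL and 399 CPM in NIHL, Col4a2 at 437 and 335 CPM and Col4a5 at 90.2 and 80.8 CPM. Col18a1, whose cleaved end is the angiogenesis inhibitor endostatin, was the mark that these cells did not share with pericyte-like cells, at 380 CPM in Drug-NIHL and 225 CPM in NIHL, 24.1 and 11.5 times the other cells. Endothelial-like cells were marked by 2 of 7 collagens, against 8.98% of all genes: Col4a1 at 298 CPM in Drug-NIHL and 349 CPM in NIHL, and Col4a2 at 206 and 247 CPM. Col18a1 was the next collagen in endothelial-like cells, at 43.7 and 50.4 CPM.

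The proportions of paired type IV chains were close between libraries in the vessel classes and further apart in some others. The ratio of Col4a1 to Col4a2 UMIs was 1.33 in Drug-NIHL and 1.37 in NIHL in pericyte-like cells, 1.08 and 1.19 in smooth muscle-like cells and 1.45 and 1.41 in endothelial-like cells, with 1.66 and 1.98 in Schwann-like cells. It was 2.03 and 2.79 in satellite glia-like cells, 0.972 and 1.8 in neuron-like cells and 2.57 and 1.12 in erythroid-like cells. Col4a1 stood at 8.05 CPM in Drug-NIHL and 14.7 CPM in NIHL in neuron-like cells. Both values lay below its 49.2 and 51.1 CPM over pooled blood-lineage cells, which include the erythroid-like cells. The neuron-like and erythroid-like ratios were therefore not read as chain proportions of their classes. Col4a3 to Col4a4 gave 0.401 and 0.364 in pericyte-like cells, 0.339 and 0.352 in fibrocyte-like cells, and 0.957 and 0.513 in supporting cell-like cells. Outside type IV, pairs in the vessel classes could lie further apart. Col6a1 to Col6a2 gave 1.21 in Drug-NIHL and 0.581 in NIHL in pericyte-like cells, and Col1a1 to Col1a2 gave 0.432 and 0.222 in smooth muscle-like cells. Across the 21 classes, which share a library and its background RNA, Pearson's correlation of log2 levels was 0.98 in Drug-NIHL and 0.97 in NIHL for Col4a1 with Col4a2, 0.671 and 0.734 for Col4a3 with Col4a4, and 0.752 and 0.712 for Col4a5 with Col4a6. For partners that do not share a start region it was 0.838 and 0.833 for Col1a1 with Col1a2, 0.892 and 0.814 for Col5a1 with Col5a2 and 0.796 and 0.809 for Col11a1 with Col11a2. The lowest of the 19 pairs compared was Col2a1 with Col9a3, paired as partners of cartilage-type fibrils, at 0.0656 and -0.0018.

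**Figure D4:**
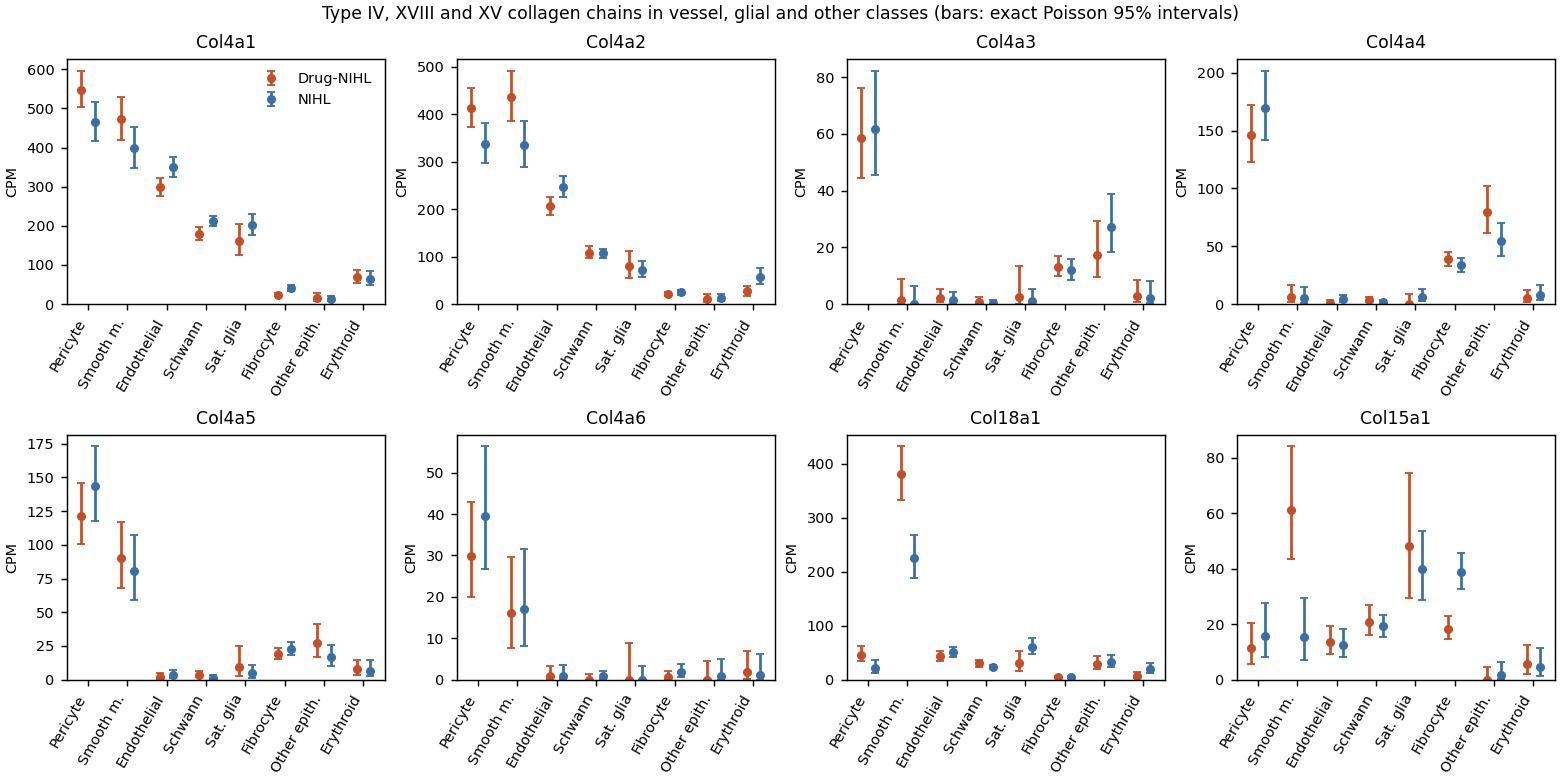
CPM (y axis) of the 6 type IV genes, Col18a1 and Col15a1 (panels) in 8 cell classes (x axis), with a Drug-NIHL and an NIHL point side by side; each point is 1 library, and the bars are exact Poisson 95% intervals of the counts. Col4a1 stands at 548 and 465 CPM in pericyte-like cells, and Col18a1 at 380 and 225 CPM in smooth muscle-like cells.

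Schwann-like cells, the myelinating glia of the nerve and the most numerous class with 3527 Drug-NIHL cells and 5585 NIHL cells, were marked by 3 of 18 collagens, against 4.61% of all genes. Col14a1 (chr15:55307750-55520803, plus strand), a fibril-associated collagen, stood at 191 CPM in Drug-NIHL (interval 175 to 208) and 204 CPM in NIHL (192 to 217), 6.63 and 6.82 times the other cells. Col28a1, known in mouse from the non-myelinated parts of peripheral nerves, stood at 25.9 CPM in Drug-NIHL and 38.2 CPM in NIHL, and Col5a3 at 30.9 and 40.4 CPM. Col1a2 was the collagen with the highest sum in these cells, 577 CPM in Drug-NIHL and 604 CPM in NIHL. Its partner Col1a1 stood there at 6.75 and 12.3 CPM only, near its level of 5.76 and 16.4 CPM over blood-lineage cells.

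Satellite glia-like cells, the non-myelinating glia around neurons and axons, were marked by 6 of 15 collagens, against 4.51% of all genes. Col16a1, a fibril-associated collagen, stood at 154 CPM in Drug-NIHL and 173 CPM in NIHL, 9.1 and 10.8 times the other cells. Col28a1 was higher than in Schwann-like cells, at 60.3 CPM in Drug-NIHL and 95.4 CPM in NIHL. Col27a1 (86.8 and 118 CPM), Col5a1 (69.9 and 72.2 CPM), Col5a3 (55.5 and 108 CPM) and Col6a3 (53.1 and 36.1 CPM) were the other marks. Both glial classes thus had Col28a1 and Col5a3 among their marks, while Col14a1 marked Schwann-like cells and stood at 62.7 and 29.6 CPM in satellite glia-like cells.

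The balance of the type I chains differed between classes. The ratio of Col1a1 to Col1a2 UMIs was 0.889 in Drug-NIHL and 0.845 in NIHL in osteoblast-like cells and 0.319 and 0.294 in arachnoid-like cells. It was 0.0647 and 0.0476 in fibrocyte-like cells and 0.0204 in Schwann-like cells of NIHL. Col1a2 also had the highest level of the collagens in blood-lineage cells, which are not known to make it. Pooled erythroid, neutrophil, T or NK and B lineage-like cells held 94.2 CPM of Col1a2 in Drug-NIHL and 138 CPM in NIHL, 49.2 and 51.1 CPM of Col4a1, and 27.2 and 24.5 CPM of Col14a1. Levels at or below these values were read as background and not as expression of a class, and the Col1a2 levels of Schwann-like and satellite glia-like cells were at least 4 times as high.

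Epithelial cells had few collagens. Organ of Corti supporting-like cells were marked by 2 of 11, against 6.34% of all genes. These were Col9a2, at 107 CPM in Drug-NIHL and 117 CPM in NIHL, and Col9a1, at 33.6 and 26.7 CPM. Col9a2 was highest in the supporting-like cluster led by Tectb, Tecta and Otol1, at 301 CPM in Drug-NIHL and 255 CPM in NIHL. Col11a1 (115 and 83.4 CPM) and Col11a2 (110 and 112 CPM) were among the 3 highest collagens of the class without marking it. Hair-like cells were marked by the only collagen with enough UMIs in both libraries, Col9a2, at 127 CPM in Drug-NIHL and 138 CPM in NIHL from 42 and 48 UMIs, where 17.3% of all genes marked the class.

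The other cochlear epithelium-like class, led by Crhbp, Vmo1 and Slc26a7, was marked by 3 of 7 collagens, against 8.34% of all genes. Col8a1 stood at 379 CPM in Drug-NIHL and 340 CPM in NIHL, Col8a2 at 33.7 and 33.4 CPM, and Col4a4 at 79.8 and 54.5 CPM. With arachnoid-like cells this was the class where the 2 type VIII genes were marked together, and Col8a1 to Col8a2 UMIs stood at 11.3 and 10.2 here and at 6.00 and 9.88 in arachnoid-like cells. Strial intermediate-like cells, the pigment cells of the stria vascularis, were marked by 1 of 3, Col5a3 at 90.4 CPM in Drug-NIHL and 66.4 CPM in NIHL, against 5.39% of all genes. Neuron-like cells were marked by 1 of 12, Col19a1, against 15.5% of all genes. Col19a1, known from synapse formation in the mouse brain, had 24 UMIs in Drug-NIHL and 34 in NIHL (5.52 and 6.15 CPM), which were 77.4% and 82.9% of its UMIs in named classes.

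Collagens outside the named classes fell mainly in a pair of unnamed clusters. Cluster 13, with Ceacam10, Them5 and Igfbp6 leading, was marked by Col9a3, Col14a1 and Col15a1, against 4.97% of all genes. Col9a3 stood there at 737 CPM in Drug-NIHL and 460 CPM in NIHL, 24.4 and 13.2 times the other cells, and it marked no named class. In choroid plexus or ependymal-like cells, too few to be compared, it stood at 42.2 CPM in Drug-NIHL and 479 CPM in NIHL. These levels came from 6 and 227 UMIs, so the Drug-NIHL sum was too low for a mark. Col14a1 stood at 258 and 288 CPM in cluster 13, above its level in Schwann-like cells. Cluster 19, with Gpr83, Ccl11 and Osr2 leading, was marked by Col15a1 (64.5 and 96.7 CPM), Col23a1 (79.8 and 122 CPM) and Col26a1 (40.7 and 38.2 CPM), against 6.32% of all genes. Col26a1 and Col15a1 also marked no named class. The 7 members that stayed under 20 UMIs in every class in at least 1 library were Col6a4, Col6a5, Col6a6, Col7a1, Col10a1, Col17a1 and Col20a1. They had 0 to 58 UMIs in Drug-NIHL and 0 to 62 in NIHL over all kept cells. Col17a1 had 11 UMIs in Drug-NIHL and 21 in NIHL in mucosal epithelium-like cells, 73.3% and 80.8% of its UMIs in named classes. Its level there was 67 and 161 times the other cells, but the Drug-NIHL sum was too low for a mark.

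Genes that process or bind collagen were concentrated in the same classes. Osteoblast-like cells were marked by 10 genes of collagen modification and cross-linking, among them Serpinh1, the collagen chaperone, at 927 CPM in Drug-NIHL and 860 CPM in NIHL and Loxl1, a cross-linking oxidase, at 238 and 160 CPM. Mmp2, Mmp13, Mmp14, Ctsk, Fap and Timp1 of the breakdown list also marked them. Pericyte-like cells were marked by the laminin chains Lama4, Lamc1 and Lamc3, by Nid1 and by the collagen-binding integrin chain Itga1, which stood at 559 CPM in Drug-NIHL and 537 CPM in NIHL. Smooth muscle-like cells were marked by Lama5 and Lamb2, satellite glia-like cells by Lama4, Nid2 and Hspg2 and by Adgrg6, a glial receptor for type IV collagen, and Schwann-like cells by Lamb1 and Hspg2. Fibrocyte-like cells were marked by Lox, Pcolce2 and the receptors Ddr2, Itga10 and Mrc2. Lair1, an inhibitory collagen receptor of leukocytes, marked macrophage-like cells at 152 and 158 CPM.

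The comparison of Drug-NIHL with NIHL addressed how expression differed, within each type, between ears given the drug before noise and untreated ears exposed to noise. A pair of collagen and class was compared where the 2 sums held at least 20 UMIs, and it was called where the ratio of CPM, Drug-NIHL over NIHL, was at least 1.5 or at most 0.667. Of 292 pairs in 21 classes, 40 were higher, against 8.13% of all gene and class pairs, and 55 were lower, against 9.89% of all. Over all cells, 1 of 41 collagens was higher, against 5.89% of all genes, and 4 were lower, against 3.7%. Col25a1 was the higher one, at 8.14 CPM in Drug-NIHL and 4.47 CPM in NIHL. Among the lower, Col28a1 (4.56 and 11.5 CPM) and Col22a1 (3.52 and 7.4 CPM) had most of their UMIs in glia-like and osteoblast-like cells, whose shares of cells were lower in Drug-NIHL.

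Smooth muscle-like cells had more collagens called higher than any other compared class. Of 12 collagens 8 were higher in Drug-NIHL, against 8.85% of all genes, and 0 were lower, against 10.2% of all genes. The median log2 ratio was 0.76 for the 12 collagens and -0.03 for all genes of the class. Col3a1 stood at 235 CPM in Drug-NIHL (146 UMIs) and 72.2 CPM in NIHL (42 UMIs), a ratio of 3.26 (interval 2.30 to 4.71). Col1a1 stood at 108 CPM in Drug-NIHL and 34.4 CPM in NIHL, a ratio of 3.14 (1.88 to 5.47), and Col1a2 at 250 and 155 CPM, a ratio of 1.62 (1.24 to 2.12). Col18a1, the mark of the class, had a ratio of 1.69 (1.36 to 2.11) and Col8a1 1.71 (1.14 to 2.59), and Col5a2, Col6a1 and Col15a1 were the other higher ones. Col1a2 fell under the limit, at 1.34 to 1.39, at resolution 2, with 500 genes required per cell and with doublets kept, and Col8a1 did so, at 1.48, with 500 genes required. Where cells needed 1000 genes the ratios were 5.48 for Col1a1 and 2.58 for Col18a1, and as the mean of each cell's CPM Col18a1 stood at 1.498, just under the limit. The main type IV chains stayed within the limits: Col4a1 had a ratio of 1.18 (0.994 to 1.41) and Col4a2 of 1.30 (1.08 to 1.58).

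Markers of other cells were read in the smooth muscle-like class beside this. Its own 8 markers summed to 44674 CPM in Drug-NIHL and 43969 CPM in NIHL. The 7 arachnoid markers summed to 2644 CPM in Drug-NIHL, with 1 at 0, and 1536 CPM in NIHL, with 3 at 0. The 10 connective tissue fibroblast markers went the other way, with 491 CPM in Drug-NIHL and 746 CPM in NIHL and 3 at 0 in each. Their part in the result was not tested. Of 16 genes of collagen modification, 7 were higher in these cells, against 8.85% of all genes, and 1 lower, against 10.2%. The median log2 ratio was 0.43 for these 16 genes and -0.03 for all genes of the class. P4hb, a subunit of prolyl 4-hydroxylase, stood at 126 CPM in Drug-NIHL and 67.0 CPM in NIHL, and the cross-linking oxidase Lox at 102 and 63.6 CPM.

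In osteoblast-like cells 3 of 31 collagens were higher, against 7.61% of all genes, and 6 were lower, against 15.8% of all genes. Col3a1 stood at 1348 CPM in Drug-NIHL and 513 CPM in NIHL, a ratio of 2.63 (2.40 to 2.89). It was 2.00 (1.82 to 2.21) within the fibroblast part, 2.54 (1.66 to 3.89) within the bone part and 1.75 as the mean of each cell's own CPM. Col12a1 had a ratio of 1.79 (1.33 to 2.42), but 1.10 when the class was redrawn at resolution 2. Col14a1 was lower, at 27.2 CPM in Drug-NIHL and 55.0 CPM in NIHL, a ratio of 0.494 that became 0.723 at resolution 2. The main bone chains stayed within the limits, with ratios of 1.18 for Col1a1, 1.12 for Col1a2 and 0.941 for Col11a1.

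In the fibroblast part Col1a1 had a ratio of 1.90 (1.72 to 2.09), Col5a2 of 2.24 (1.76 to 2.85) and Col12a1 of 2.25 (1.46 to 3.50). In the bone part Col1a1 had 1.30 (1.24 to 1.36) and Col5a2 1.34 (1.18 to 1.51). Col5a1 had 1.46 (1.04 to 2.06) in the fibroblast part and 1.29 (0.942 to 1.75) in the bone part, and Col1a2 had 1.43 and 1.23. The difference between the parts was not tested. Beside this, Timp1, an inhibitor of matrix proteases, stood at 1307 CPM in Drug-NIHL and 223 CPM in NIHL in the whole class, a ratio of 5.86 (5.17 to 6.65). The collagenase Mmp13 stood at 603 CPM in Drug-NIHL and 99.3 CPM in NIHL, a ratio of 6.07 (5.04 to 7.35). Lox stood at 470 CPM in Drug-NIHL and 221 CPM in NIHL, and its ratio was 1.85 in the fibroblast part and 1.77 in the bone part. Of the 19 modification genes read in the class, 4 were higher, against 7.61% of all genes, and 0 lower, against 15.8%. Their median log2 ratio was 0.14, against -0.08 for all genes.

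Fibrocyte-like cells had 3 of 32 collagens higher, against 5.77% of all genes, and 4 lower, against 6.77%. Col11a2 stood at 209 CPM in Drug-NIHL and 125 CPM in NIHL, a ratio of 1.68 (1.5 to 1.88). Col9a2 had a ratio of 1.57 (1.37 to 1.81), and Col25a1, at 31.0 CPM in Drug-NIHL and 13.7 CPM in NIHL, had 2.25 (1.62 to 3.17). Col15a1 was lower, at 18.3 CPM in Drug-NIHL and 38.8 CPM in NIHL, a ratio of 0.472 (0.355 to 0.624), as were Col4a1 (0.595), Col6a1 (0.552) and Col6a2 (0.661). Col4a1 stood at 24.2 CPM in Drug-NIHL and 40.7 CPM in NIHL, both below its level in the blood-lineage classes, 49.2 and 51.1 CPM.

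The clusters of the fibrocyte-like class did not contribute equally in the 2 libraries. Cluster 12, where Col9a2 and Col11a2 were highest, held 731 Drug-NIHL cells and 135 NIHL cells, against 1059 and 994 in cluster 4. With the clusters weighted as in NIHL the ratios were 1.37 for Col11a2, 1.24 for Col9a2 and 1.60 for Col25a1, so that Col11a2 and Col9a2 were no longer called. Nor were Col4a1 and Col6a1, at 0.726 and 0.783, and Col4a1 stood at 0.826 with doublets kept. Of the Col6a2 UMIs of the class, 27 of 37 in Drug-NIHL and 39 of 47 in NIHL lay in cluster 4, where its ratio was 0.853 (0.502 to 1.43). Col15a1 stood at 0.219 where cells needed 1000 genes. The ratio of Col9a2 was 0.734 (0.574 to 0.947) in cluster 12, 1.39 (1.12 to 1.73) in cluster 4, 1.55 (1.04 to 2.35) in cluster 9 and 1.45 (0.847 to 2.51) in cluster 21. Within cluster 12 Col11a2 had a ratio of 1.29 (1.01 to 1.67). The ratio of Col25a1 was under the limit in cluster 4, at 1.40 (0.758 to 2.61), and in cluster 9, at 1.28 (0.723 to 2.30). It was 2.55 (1.12 to 7.18) in cluster 12, from 76 Drug-NIHL and 6 NIHL UMIs. Within cluster 4 Col11a2 had a ratio of 1.64 (1.33 to 2.01), Col2a1 of 1.54 (1.29 to 1.86) and Col15a1 of 0.639 (0.455 to 0.887). None of 19 modification genes was called in the class, where 5.77% of all genes were higher and 6.77% lower. Of 9 export genes Pcolce, an enhancer of procollagen trimming, was lower at 95.9 CPM in Drug-NIHL and 146 CPM in NIHL.

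Pericyte-like cells had 4 of 21 collagens higher, against 8.0% of all genes, and 1 lower, against 8.7%. Their type IV chains stayed within the limits, with ratios of 1.18 (1.03 to 1.35) for Col4a1 and 1.22 (1.04 to 1.43) for Col4a2. Col1a1 stood at 58.7 CPM in Drug-NIHL and 21.1 CPM in NIHL, a ratio of 2.79 (1.58 to 5.2), which was 5.72 with 500 genes required per cell, and 1 cell held 26.3% of its UMIs in Drug-NIHL and 25% in NIHL. The arachnoid markers summed to 4467 CPM in Drug-NIHL and 1148 CPM in NIHL in the class, and their part in the result was not tested. Endothelial-like cells had 1 of 12 higher, against 5.26%, and 0 lower, against 5.54%. Col4a1 had a ratio of 0.854 (0.767 to 0.95) and Col4a2 of 0.833 (0.732 to 0.947) there, and of 14 basement membrane partners 4 were lower, with Nid1 at 22.8 CPM in Drug-NIHL and 45.1 CPM in NIHL.

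Schwann-like cells had 1 of 23 collagens higher, against 5.84% of all genes, and 2 lower, against 4.93%. Their leading collagens stayed close, with ratios of 0.956 (0.899 to 1.02) for Col1a2 and 0.935 (0.841 to 1.04) for Col14a1. Satellite glia-like cells had 4 of 22 higher, against 8.23%, and 5 lower, against 14.9%. The class held 529 Drug-NIHL cells and 1221 NIHL cells. Col1a1 stood at 62.7 CPM in Drug-NIHL and 133 CPM in NIHL, a ratio of 0.470 (0.297 to 0.717), and Col5a3 at 55.5 and 108 CPM, a ratio of 0.512 (0.312 to 0.805). Col18a1 (0.513, but 0.705 with 500 genes required per cell) and Col28a1 (0.632, but 0.686 as the mean of each cell's CPM) were also lower, and Col23a1 was higher at 113 CPM in Drug-NIHL and 63.9 CPM in NIHL, a ratio of 1.77 (1.20 to 2.61). Of the collagen receptors Adgrg6 was lower at 62.7 CPM in Drug-NIHL and 103 CPM in NIHL.

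Arachnoid-like cells had 3 of 31 higher, against 8.26% of all genes, and 4 lower, against 6.92%. Col25a1 had the largest ratio there, 3.22 (1.76 to 6.29), from 32.9 CPM in Drug-NIHL and 10.2 CPM in NIHL, and it was 2.09 as the mean of each cell's CPM. This transmembrane collagen was called higher in both fibrocyte-like and arachnoid-like cells, though its ratios within fibrocyte-like clusters 4 and 9 lay under the limit. Supporting-like cells had 0 of 20 higher, against 6.04%, and 6 lower, against 7.29%, none of them a mark of the class. Other cochlear epithelium-like cells had 1 of 13 higher, against 5.95%, and 2 lower, against 8.39%. Col1a2 was lower there at 18.7 CPM in Drug-NIHL and 48.4 CPM in NIHL, a ratio of 0.387 that became 0.806 with doublets kept, and both values lay below the Col1a2 background of blood-lineage cells.

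Several large ratios rested on background levels or on 1 cell. Col1a1 had 164 UMIs in Drug-NIHL hair-like cells and 0 in NIHL, which allows up to 8.6 CPM, and all 164 lay in 1 cell. The same class had a Col1a2 ratio of 10.8, with 93.9% of the Drug-NIHL UMIs in 1 cell. In macrophage-like cells Col3a1 had a ratio of 6.60 and Col1a1 of 0.405, and 1 cell held 69.6% of the Col3a1 UMIs of Drug-NIHL, while 1 cell in each library held 90.9% of the Col1a1 UMIs of Drug-NIHL and 79.2% of those of NIHL. The ratios of Col1a2 in mucosal epithelium-like cells (0.367), Col4a1 in neuron-like cells (0.549), Col4a2 in erythroid-like cells (0.457) and Col11a2 in oligodendrocyte-like cells (0.563) were found in classes that no collagen but Col19a1 marked. Of these, Col11a2 stood at 36.2 CPM in Drug-NIHL and 64.3 CPM in NIHL, above its 19.4 and 14.3 CPM over blood-lineage cells. The cell with the most Col11a2 UMIs held 7.41% of them in Drug-NIHL and 4.69% in NIHL. With doublets kept, the ratios were 0.649, 0.925 and 0.748 for the Col1a2, Col4a1 and Col11a2 pairs. In cluster 13 Col9a3 stood at 737 CPM in Drug-NIHL and 460 CPM in NIHL, a ratio of 1.60 (1.41 to 1.83).

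**Figure D5:**
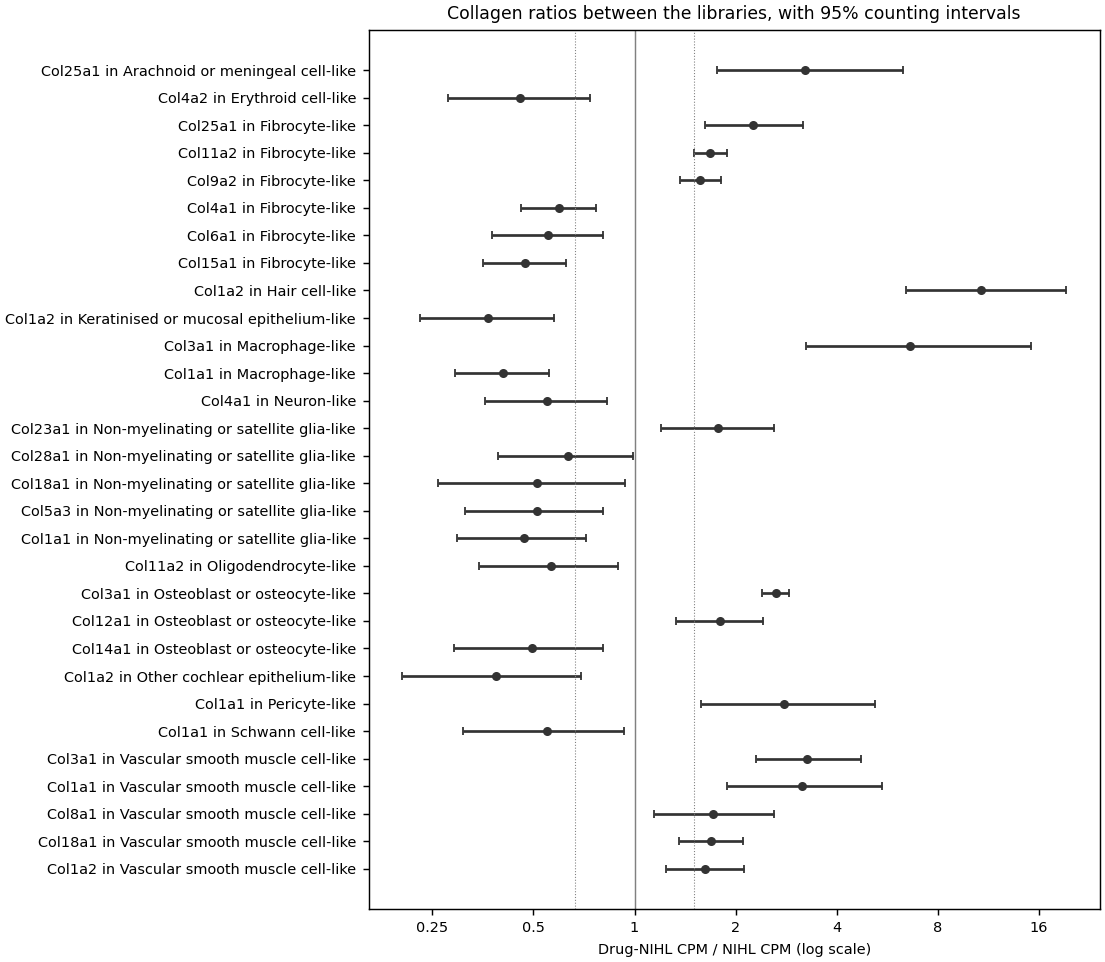
Ratio of CPM, Drug-NIHL over NIHL (x axis, log scale), for 30 named pairs of collagen and class (rows), with exact 95% counting intervals as bars and dotted lines at 0.667 and 1.5; each ratio compares 1 library with 1 library. The smooth muscle-like rows lie above 1, led by Col3a1 at 3.26, and 15 of the 30 ratios lie above 1.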

How the data were processed

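Single-cell RNA sequencing was measured in 2 libraries, Drug-NIHL and NIHL, each of 5 pooled ears. The deposited count matrices hold UMI counts per gene and barcode, made by the authors with Cell Ranger (5.0 per the submitters' processing notes, 5.0.1 per the file headers) on mm10. The notes also name STAR and Seurat 3.2.2. The deposited barcodes start at 500 UMIs.

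Cells with at least 300 genes, 500 UMIs and at most 20% mitochondrial UMIs were kept, which left 20133 Drug-NIHL and 17423 NIHL cells before doublet removal. Scrublet (expected rate 0.08) then removed 2597 Drug-NIHL and 805 NIHL cells, at score thresholds of 0.164 and 0.264. Both libraries were clustered together with Scanpy 1.11.5 on 3000 variable genes, the 44 collagens left out (30 components, 15 neighbours, Leiden resolution 1, leidenalg 0.10.2). Naming a cluster needed at least 3 of a fixed marker list detected at 2 times the other cells. Every named cluster also had a listed marker among its 10 leading genes. Clusters 13 and 19 had a best-scoring type, Schwann cell and connective tissue fibroblast, but had no such leading marker and stayed unnamed. Naming could split or join types differently from the authors, whose cell types were not used here.

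UMIs were summed per class and library and divided by the class total. With 1 library per group there is no test: intervals are exact Poisson (levels) and exact conditional binomial (ratios), at 95%, and a count of 0 is given a limit of 3 counts. Median log2 ratios add 0.5 UMI to each sum. Named genes are the collagens that mark a class, those with one of the 3 highest sums of a class, and those whose ratio is past the limits where the larger sum holds 50 UMIs or more and the interval leaves out 1. From each pathway list up to 3 genes per direction and class could be named. Members, gene lists and markers were chosen with earlier results of these data known. The alternatives changed cell filters, doublets, resolution, normalization (TMM factors from edgeR 4.0.16, used for scaling only), cluster weights and limits. Both calling steps were also run on simulated data, which tests the calculation and not these 2 libraries. Gene positions come from GENCODE M21 (GRCm38), where all 44 matched by symbol and identifier.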

Additional observations from a re-analysis of the deposited data

Results flagged for a closer look

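For 4 collagens the ratio of Drug-NIHL to NIHL went one way in some classes and the opposite way in others. With 1 library per group these differences between classes were not tested.

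Col11a2 had a ratio of 1.68 in fibrocyte-like cells and 0.563 in oligodendrocyte-like cells. With the fibrocyte-like clusters weighted as in NIHL the first was 1.37, under the limit. Col18a1 had a ratio of 1.69 in smooth muscle-like cells, which it marks, and 0.513 in satellite glia-like cells, where it rested on 13 Drug-NIHL and 66 NIHL UMIs.

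Col1a1 had ratios of 3.14 in smooth muscle-like cells and 2.79 in pericyte-like cells, against 0.547 in Schwann-like cells, 0.470 in satellite glia-like cells and 0.405 in macrophage-like cells. In Schwann-like cells it stood at 6.75 CPM in Drug-NIHL and 12.3 CPM in NIHL, close to the 5.76 and 16.4 CPM of the blood-lineage classes, and in macrophage-like cells 1 cell in each library held 90.9% of its Drug-NIHL UMIs and 79.2% of its NIHL UMIs. In hair-like cells it had 164 UMIs in Drug-NIHL, all in 1 cell, and 0 in NIHL. Col1a2 had ratios of 1.62 in smooth muscle-like cells and 10.8 in hair-like cells, against 0.367 in mucosal epithelium-like cells and 0.387 in the other cochlear epithelium-like class. Its levels were 25.6 and 69.8 CPM in the mucosal class and 18.7 and 48.4 CPM in the other cochlear epithelium-like class, all below the 94.2 CPM in Drug-NIHL and 138 CPM in NIHL of the blood-lineage classes, and 1 cell held 93.9% of the Drug-NIHL UMIs of hair-like cells.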

How the results depend on the processing

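No paired analysis was possible because there is 1 library per group: the ears come from the same mice but were pooled before sequencing. Of 57 marked pairs, 57 were shared when doublets were kept or collagens were allowed among the variable genes, 52 at resolution 2, 50 with at least 500 genes per cell and 33 with at least 1000. The setting with doublets kept did not cluster the cells again. Each predicted doublet took the most common cluster of its nearest cells, and the class names were left as they were. The counts of collagen pairs called, 40 higher and 55 lower, became 21 and 27 with a minimum of 50 UMIs and 169 and 222 with no minimum. With doublets kept 69 pairs were higher. Over all genes, 8.13% of gene and class pairs were higher and 9.89% lower in the main setting. The pathway counts, read here only for their change between settings, were 72 higher and 78 lower. They became 34 and 35, then 275 and 291, and 113 were higher with doublets kept. The cause was not tested for the doublet setting. Only 34 of the 40 higher calls and 38 of the 55 lower calls were shared with doublets kept, against 15 and 19 where cells needed 1000 genes. Of the 30 named ratios 28 kept their direction under every setting. Col1a2 in hair-like cells went to 0.886 without the cell with the most UMIs, and Col4a2 in erythroid-like cells to 1.04 with at least 500 genes per cell. Col11a2 in fibrocyte-like cells ranged from 1.29, without cluster 12 (an alternative added after seeing the data), to 1.92. Col3a1 in osteoblast-like cells ranged from 1.75 to 2.77, and Col3a1 in smooth muscle-like cells from 2.28 to 3.70. Depth limits members under 20 UMIs.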

Other observations

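Further counts bear on the collagen pathway lists. In mucosal epithelium-like cells Timp1 stood at 151 CPM in Drug-NIHL (183 UMIs) and 12.8 CPM in NIHL (11 UMIs), a ratio of 11.8 (interval 6.44 to 24.1), while Pcolce stood at 326 and 727 CPM, a ratio of 0.448. In macrophage-like cells Timp1 stood at 35.1 CPM in Drug-NIHL and 5.96 CPM in NIHL. Timp1 was thus called higher in these classes as well as in osteoblast-like cells. In neutrophil-like cells Mmp9 stood at 513 CPM in Drug-NIHL and 1226 CPM in NIHL, a ratio of 0.419 (0.348 to 0.504), and Mmp8 at 781 and 1501 CPM, a ratio of 0.520. Sparc, a collagen-binding protein, was called lower in satellite glia-like, oligodendrocyte-like, mucosal epithelium-like, erythroid-like and monocyte-like cells. Its ratio was 0.625 in satellite glia-like cells, with 1708 CPM in Drug-NIHL and 2732 CPM in NIHL. The erythroid-like ratio, 0.6666, lay at the limit, and the median log2 ratio over all genes of that class was -0.22. Sparc stood at 5627 CPM in Drug-NIHL and 5527 CPM in NIHL in osteoblast-like cells. The part of background RNA in its lower levels was not tested.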
